A study of Mus musculus with 24 samples.

Results

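The interaction of Tsc1 and Cpt2 loss in fasted mouse liver was examined, that is, whether loss of both genes changed a transcript by more or by less than the changes of the single deletions add up to. The 16 libraries that form this 2 x 2 design were taken by their genotype label from the 24 liver RNA-seq libraries of the series. There were 4 control livers (labelled wild type), 4 labelled Tsc1 L-/-, 4 labelled Cpt2 L-/- and 4 labelled Tsc1Cpt2 L-/-, the double knockout (DKO). All mice were C57BL/6 males, 8 to 10 weeks of age and chow fed, and all had been fasted for 24 h, so fed liver is no part of the comparison. The floxed alleles were removed by Albumin-Cre, which acts in hepatocytes, so liver cells in which it is not active keep both genes. The methods give the controls as floxed Tsc1 f/f; Cpt2 f/f littermates and describe the Cpt2 L-/- line as one made earlier with floxed controls of its own. RNA came from pieces of whole liver, and fewer cells of a type and less RNA per cell cannot be told apart in such samples.

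Tsc1 is a subunit of the tuberous sclerosis complex, which holds mTorc1 inactive when nutrients or insulin are low, so its loss leaves this growth-promoting kinase complex active in the fasted state. Cpt2 is the inner-membrane carnitine palmitoyltransferase that long-chain fatty acids need to enter mitochondrial β-oxidation, and its loss in liver is known to raise the target genes of Pparα, the fatty acid-activated nuclear receptor that drives fasting oxidation and ketogenesis. Hepatocytes also differ by position, with glutamine synthesis confined to cells around the central vein and glutaminase and urea synthesis strongest around the portal vein.

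The quantity reported throughout is the interaction term. It is the log2 fold change from Cpt2 L-/- to DKO livers minus the log2 fold change from control to Tsc1 L-/- livers, and it equals the effect of Cpt2 loss with Tsc1 deleted minus its effect with Tsc1 intact. A term above 0 means that DKO livers lay above the level that the single changes multiply to, and a term below 0 that they lay below it. Levels are given in CPM, counts scaled by edgeR to the normalized size of each library, in the order of the replicate numbers.

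Before the terms were read, the libraries themselves were compared. Totals ran from 14763846 to 18657651 counts in the 16 libraries. All 4 detected hepatocyte markers were high in every library, with summed levels of 35300 to 37700 FPKM in control, 24100 to 31400 in Tsc1 L-/-, 21500 to 31900 in Cpt2 L-/- and 19400 to 21700 in DKO livers, where the groups differed most in Alb, the albumin gene (19300 to 21800 FPKM in control and 5760 to 7570 in DKO livers), while Apoa1 and Ttr of DKO livers overlapped control. Of these hepatocyte markers 0 were called in the interaction, and 0 of the tested markers of other cell types or tissues were called. The 5 Kupffer cell markers summed to 49.6 to 73.7 FPKM in DKO livers and 65.1 to 156 FPKM in the other 12 livers. The macrophage marker Cd68 went the other way, at 5.36 to 7.52 FPKM in control, 18.1 to 46 in Cpt2 L-/- and 30.2 to 108 in DKO livers. The macrophage markers Csf1r and Lyz2 were lower in DKO than in control livers. The adipocyte gene Adipoq was highest in 1 Cpt2 L-/- liver, at 1.99 FPKM. The 4 Cpt2 L-/- libraries stood apart in another way. In 4 genes (Cd1d2, Rps3a3, Hist1h2bq and Hist1h2al) each of them lay at least 10-fold below each of the other 12 libraries. The 8 libraries of the other genotypes of the series, Ppara KO and Cpt2 Ppara KO, were low as well, with at most 3.48 CPM in any of these genes. By the same rule control livers stood apart in 1 gene, Hrk, at 0 CPM against 0.57 to 2.36 in the other 12 libraries. Since the Cpt2 L-/- group enters the term directly, a trait of this group that came from its colony or its preparation cannot be told apart from an interaction. The change from Tsc1 L-/- to DKO livers does not use these 4 libraries and is given beside several of the terms in which Cpt2 L-/- livers stood apart.

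The deleted genes were read next. Tsc1 itself had an interaction term. Its level was 38.3, 36.8, 37.2 and 39.9 CPM in control, 18.02, 28.6, 25.3 and 25.5 in Tsc1 L-/-, 47.5, 40.4, 53.5 and 51.1 in Cpt2 L-/- and 18.1, 15.7, 15.5 and 17.1 in DKO livers. The Tsc1 transcript was thus lower in every Tsc1-deleted liver than in every liver with intact Tsc1, and highest in Cpt2 L-/- livers. The fall with Tsc1 loss was −0.65 on the log2 scale without and −1.52 with Cpt2 deletion, a term of −0.87 ± 0.18 (SE, edgeR adjusted p = 0.0168). The call held with each library left out in turn (adjusted p up to 0.0442, without DKO replicate 2), and it was lost with limma on FPKM (0.0685 and 0.0745) and with all 24 libraries in the fit (0.128). Cpt2 was at 87.8 to 104 CPM in control, 118 to 172 in Tsc1 L-/-, 80.3 to 105 in Cpt2 L-/- and 80.8 to 118 in DKO livers. Counts summed over a gene cannot show that an exon is missing, which leaves the Cpt2 labels unchecked, and the term of −0.42 ± 0.20 was not called (edgeR adjusted p = 0.266). Ppara, the receptor gene, had a term of 0.01 ± 0.25 (SE, edgeR adjusted p = 0.986), and its direction changed between settings.

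Of 13641 genes tested, 324 were called in the interaction (2.38%; edgeR quasi-likelihood test, Benjamini-Hochberg adjusted p under 0.05), 149 with a term above 0 (1.09%) and 175 below 0 (1.28%). At an unadjusted p under 0.05 there were 2577. The called genes moved far: the smallest absolute term was 0.519, the median 1.13, and 188 genes had an absolute term of at least 1, so that the effects on the 2 backgrounds differed by at least 2-fold. A term depends on the scale, and 322 of the 324 (99.4%) had the same sign when means were compared in CPM without logarithms. Over all tested genes the median term was 0.00385, a value that the normalization brings near 0. The plot of the Tsc1 effect without against with Cpt2 deletion shows the called genes as those far from the line of equal effects.

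**Figure D1:**
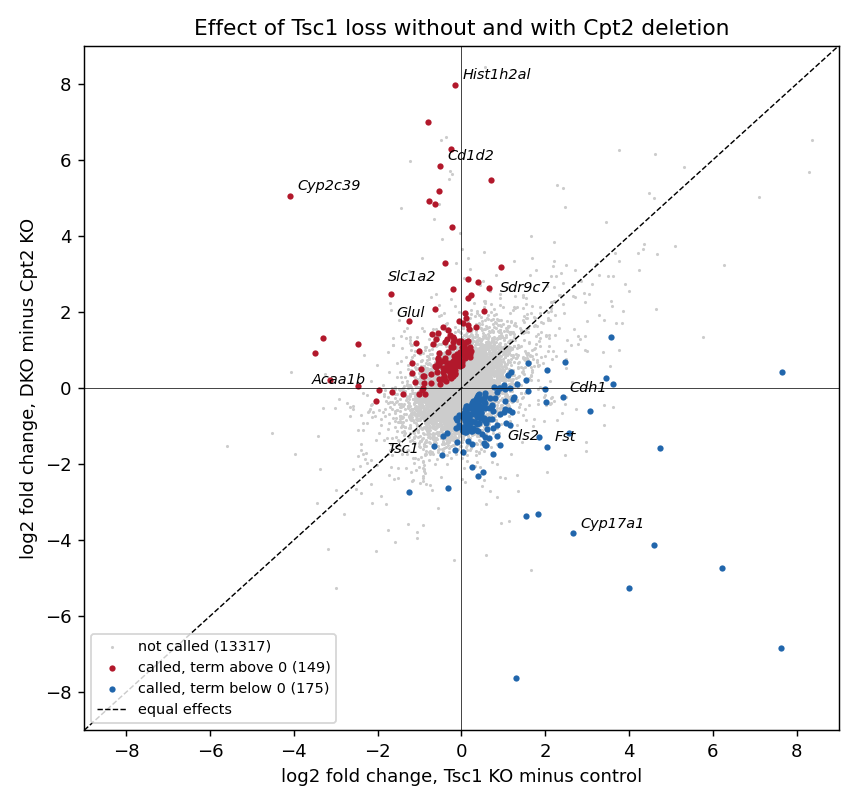
Log2 fold change with Tsc1 loss in livers with intact Cpt2 (x axis, Tsc1 L-/- minus control) and in Cpt2-deleted livers (y axis, DKO minus Cpt2 L-/-), 1 point per tested gene; 2 uncalled genes lie beyond the axes. Red points are the 149 called genes above the dashed line of equal effects and blue points the 175 below it.

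For most called genes the Tsc1 effect passed the threshold on 1 background only, which does not show that it was absent on the other. For 221 genes (68.2%) the Tsc1 effect passed the threshold only in Cpt2-deleted livers, for 72 (22.2%) only in livers with intact Cpt2, and for 17 it passed in both with opposite signs. The shares in all tested genes were 15.4%, 3.75% and 0.125%. The same terms can be read as effects of Cpt2 loss, which passed only with Tsc1 deleted in 129 genes, only with Tsc1 intact in 113, in opposite directions in 49 and in the same direction in 33, beside 14.4%, 13.3%, 0.359% and 17.4% of all tested genes. Over all tested genes the Tsc1 effect passed in 6.64% with intact and 18.3% with deleted Cpt2, and the Cpt2 effect in 31% with intact and 32.2% with deleted Tsc1. These effects share libraries with each other and with the term, so the counts describe its form and add no evidence for it.

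The term of 235 called genes (72.5%) went with a group whose 4 libraries all lay above or all below the other 12, a form found in 16.5% of tested genes. DKO livers stood alone in 103 of them (57 above and 46 below), Cpt2 L-/- livers in 78 (39 above and 39 below), Tsc1 L-/- livers in 40 (21 above and 19 below) and control livers in 34 (8 above and 26 below), and a gene can count for 2 groups. In all tested genes the shares above and below were 3.6% and 2.44% for DKO, 2.83% and 3.17% for Cpt2 L-/-, 1.65% and 1.47% for Tsc1 L-/- and 1.11% and 1.41% for control. In 115 called genes (35.5%) the DKO mean was nearer to the control mean than both single deletions were, against 21.2% of tested genes, a description chosen after the values had been seen. The term is built from these same libraries, so selection by it favours such forms. These shares too describe the term and add no evidence for it.

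Among the called genes were some of glutamine handling and liver zonation. Slc1a2 (ENSMUSG00000005089, chromosome 2 from 102658659 to 102790784), the glutamate transporter of pericentral hepatocytes, had the smallest p of all genes. It was at 242, 299, 313 and 266 CPM in control, 215, 184, 279 and 292 in Tsc1 L-/-, 28.8, 26.5, 33.2 and 42.5 in Cpt2 L-/- and 229.8, 172, 194 and 197 in DKO livers. The Cpt2 L-/- livers were all below the other 12, and DKO livers were below control livers and reached the range of Tsc1 L-/- livers, where the single changes multiply to 28.4 CPM. The term was 2.83 ± 0.23 (SE, edgeR adjusted p = 3.6e-06). Glul (ENSMUSG00000026473, chromosome 1 from 153899944 to 153909723), glutamine synthetase and the classical marker of the hepatocytes next to the central vein, had the same form, with 1074, 1789, 1341 and 1460.0 CPM in control, 708, 972, 1268 and 1268 in Tsc1 L-/-, 321, 272, 331 and 243 in Cpt2 L-/- and 954, 848, 717 and 968 in DKO livers. Again the Cpt2 L-/- livers lay below the other 12, DKO livers lay between them and the controls, and the term was 2.02 ± 0.28 (SE, edgeR adjusted p = 0.000892). Sdr9c7, a short-chain dehydrogenase, was at 6.65 to 8.74 CPM in Cpt2 L-/- livers and at 33.3 to 57.9 in DKO livers, with a term of 1.98 ± 0.27 (SE, edgeR adjusted p = 0.000892), and was chosen after its values had been seen. Between groups other than Cpt2 L-/-, from Tsc1 L-/- to DKO livers, Slc1a2 changed by −0.30 (edgeR adjusted p = 0.171) and Glul by −0.28 (0.286), while Sdr9c7 fell by 0.78 (0.00398). In the Cpt2 Ppara KO livers, which also have Cpt2 deleted, Slc1a2 was at 50.2 to 154 CPM and Glul at 294 to 921 CPM, and these values overlap those of Cpt2 L-/- livers in Glul only. Slc1a2 and Glul kept their calls with each library left out (adjusted p up to 3.62e-05 and 0.0035) and with all 24 libraries in the fit (0.000361 and 0.0257).

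The 3 called periportal genes had terms below 0. Cdh1 (ENSMUSG00000000303, chromosome 8 from 106603351 to 106670246), E-cadherin, which in liver is strongest around the portal vein, was highest in Tsc1 L-/- livers among the 4 groups. Its level was 19.9, 18.2, 8.94 and 13.6 CPM in control, 119.8, 59.3, 79.5 and 65.0 in Tsc1 L-/-, 24.2, 23.5, 20.2 and 18.6 in Cpt2 L-/- and 19.97, 20.9, 17.9 and 14.1 in DKO livers. In the Ppara KO livers of the series it was at 88.4 to 137 CPM. Every Tsc1 L-/- liver was above the other 12, the single changes multiply to 116 CPM, and the term was −2.65 ± 0.34 (SE, edgeR adjusted p = 0.000867). Gls2 (ENSMUSG00000044005, chromosome 10 from 128194457 to 128210004), the liver glutaminase that releases ammonia for the urea cycle, went up with Tsc1 loss alone and down with Tsc1 loss in Cpt2-deleted livers. It was at 371, 238, 208 and 129 CPM in control, 552, 412, 525 and 303 in Tsc1 L-/-, 117, 176, 138 and 138 in Cpt2 L-/- and 48.6, 40.1, 62.7 and 48.1 in DKO livers. All 4 DKO livers were below the other 12, and the term was −2.41 ± 0.37 (SE, edgeR adjusted p = 0.00323). Cyp2f2, the P450 used as a periportal marker, was at 603 to 1071 CPM in Tsc1 L-/- livers and 313 to 479.7 in control livers, and at 122 to 171 in DKO and 164 to 217 in Cpt2 L-/- livers, a term of −1.38 ± 0.26 (SE, edgeR adjusted p = 0.0105). These 3 calls held with each library left out (adjusted p up to 0.028), and that of Cyp2f2 was lost with all 24 libraries in the fit (0.32).

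As a group, the 21 tested periportal genes had a median term of −0.91, with 19 below 0, 3 called lower and 0 called higher, beside 1.28% and 1.09% of all genes. The 25 pericentral genes had a median of 0.51, with 18 above 0, 2 called higher and 1 called lower, beside a median of 0.00385 over all genes. The pericentral gene called lower was Avpr1a, the vasopressin receptor, with means of 22.0 CPM in control, 9.24 in Tsc1 L-/-, 17.6 in Cpt2 L-/- and 2.60 in DKO livers and a term of −1.49 (edgeR adjusted p = 0.026). The Tsc1 effect on the periportal list had a median of 0.63 without and −0.24 with Cpt2 deletion, and on the pericentral list of −0.58 and −0.27. Most members did not pass the test. Periportal genes of the urea cycle, Ass1 and Asl, had terms of −1.13 and −1.55 (edgeR adjusted p = 0.115 and 0.118), and the pericentral Cyp2e1 and Oat, ornithine aminotransferase, had terms of 0.74 and 1.10 (0.133 and 0.151).

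**Figure D2:**
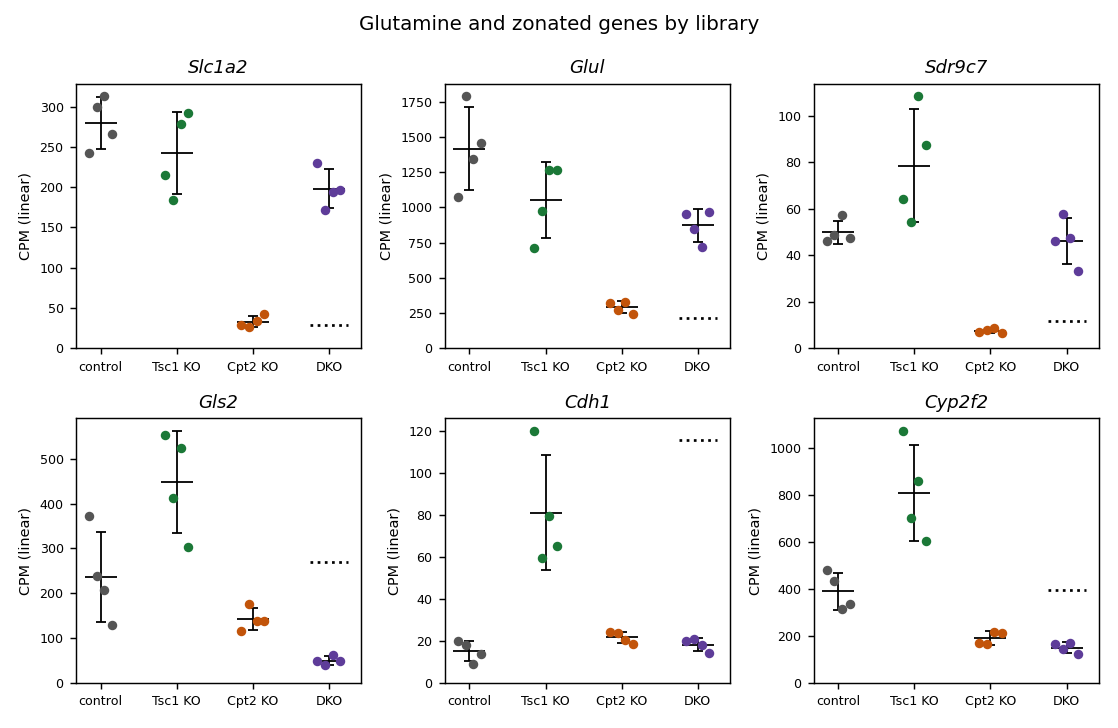
CPM (linear axis) of glutamine or zonated genes, and of Sdr9c7, in the 4 libraries of each group. Points are libraries, bars are the mean and SD, and the dotted line over DKO is the level that the single changes multiply to. Slc1a2, Glul and Sdr9c7 are lowest in Cpt2 L-/- livers (26.5 to 42.5 CPM for Slc1a2), while Cdh1 is, of these 4 groups, high in Tsc1 L-/- livers only (59.3 to 119.8 CPM).

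The promoters of Slc1a2, Glul and Cyp2f2 are shown because these genes stand on opposite sides of the liver lobule and of the interaction. They are the 250 bases before the RefSeq start site (assembly GRCm38.p6, plus strand), chosen with the values known. Capitals mark a match to a searched motif.
Slc1a2: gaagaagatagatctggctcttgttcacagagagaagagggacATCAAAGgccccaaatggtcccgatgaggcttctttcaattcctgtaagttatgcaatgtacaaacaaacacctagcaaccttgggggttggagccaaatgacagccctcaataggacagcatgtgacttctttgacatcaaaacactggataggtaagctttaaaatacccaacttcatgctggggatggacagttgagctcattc
Glul: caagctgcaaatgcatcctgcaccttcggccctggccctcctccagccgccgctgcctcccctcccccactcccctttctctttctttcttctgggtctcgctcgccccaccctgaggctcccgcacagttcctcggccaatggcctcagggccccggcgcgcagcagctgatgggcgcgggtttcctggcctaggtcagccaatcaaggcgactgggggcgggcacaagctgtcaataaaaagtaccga
Cyp2f2: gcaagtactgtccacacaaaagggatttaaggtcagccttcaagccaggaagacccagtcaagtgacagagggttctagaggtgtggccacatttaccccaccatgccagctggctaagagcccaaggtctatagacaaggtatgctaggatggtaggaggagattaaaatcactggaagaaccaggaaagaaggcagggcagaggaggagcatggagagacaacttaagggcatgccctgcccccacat
The windows lie at chr2:102706188-102706437, chr1:153899679-153899928 and chr7:27119705-27119954, and that of Slc1a2 ends before a start site 47779 bases inside the gene as the count table has it. On both strands of windows running on to 50 bases after the start site, the letters CTTTGAT (TCF/LEF factors, which act downstream of Wnt in pericentral cells), CACGTG (the E-box), GTAAACA (FoxO), TGATGCAAT (the Atf4 composite site) and AGGTCA repeated after 1 base (the direct repeat bound by Pparα) were searched. Only the Slc1a2 window held a match, to CTTTGAT on the reverse strand. Of the windows of 9914 tested genes 2.41% held CTTTGAT, and of those of the 227 called genes that had a window 4 did (1.76%). The E-box was in 10.1% of all and 12.3% of called windows, the FoxO letters in 2.52% and 2.64%, the Atf4 letters in 0.141% and 0, and the Pparα repeat in 0.0403% and 0.441%, the latter being 1 gene. A match is a description of the letters and not of a bound site.

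Pparα target genes had terms above 0 more often than below, though few passed the test. Of 57 targets 50 were above 0, with a median of 0.65, 3 called higher (against 1.09% of all genes) and 0 called lower. The median Tsc1 effect on them was −0.67 with intact Cpt2 and −0.07 in Cpt2-deleted livers. Acaa1b (ENSMUSG00000010651, chromosome 9 from 119148023 to 119157093), a peroxisomal thiolase, was at 1763, 2796, 2826 and 3148 CPM in control, 1050.0, 667, 652 and 952 in Tsc1 L-/-, 4819, 6719, 7152 and 6613 in Cpt2 L-/- and 4748, 6488, 5495 and 6707 in DKO livers. It was lowest in Tsc1 L-/- livers and as high in DKO as in Cpt2 L-/- livers, whose ranges overlap, with a term of 1.57 ± 0.29 (SE, edgeR adjusted p = 0.00896). Its reads can be shared with its near-identical neighbour Acaa1a, so its level is uncertain. Pex11a, which drives division of peroxisomes, was at 161, 196, 241 and 204 CPM in control, 56.7, 64.0, 91.4 and 95.0 in Tsc1 L-/-, 615, 604, 689.5 and 584 in Cpt2 L-/- and 441, 528, 514 and 736 in DKO livers. The Tsc1 L-/- livers were again below all others and the term was 1.24 ± 0.26 (SE, edgeR adjusted p = 0.017). Ech1, an isomerase of unsaturated fatty acid oxidation, was at 232 to 388 CPM in Tsc1 L-/- livers and between 447 and 701 in the other 12, with a term of 0.89 ± 0.23 (SE, edgeR adjusted p = 0.048). The call of Ech1 was lost with RLE size factors and in 14 of the 16 fits that each leave out a library (adjusted p up to 0.104, without DKO replicate 2), while those of Acaa1b and Pex11a held in all 16, with adjusted p up to 0.0262 and 0.0397. With all 24 libraries in the fit the adjusted p was 0.165 for Acaa1b, 0.314 for Pex11a and 0.573 for Ech1. With limma on FPKM the calls of Pex11a (adjusted p = 0.0511 and 0.0524) and Ech1 (0.0702 and 0.0738) were lost. That of Acaa1b was kept there (0.0115 and 0.0115).

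Of 33 genes of mitochondrial β-oxidation 30 had a term above 0, with a median of 0.60 and 1 call, Ech1 (2.38% of all genes were called). At an unadjusted p under 0.05 there were 16 higher and 0 lower, beside 9.57% and 9.32% of all genes. Acadm, the medium-chain acyl-CoA dehydrogenase, had means of 729, 371.9, 677 and 589.9 CPM in control, Tsc1 L-/-, Cpt2 L-/- and DKO livers and a term of 0.79 ± 0.24 (SE, edgeR adjusted p = 0.0881), which did not pass. Slc25a20, the carnitine-acylcarnitine carrier that works beside Cpt2, had a term of 0.65 ± 0.18 (SE, edgeR adjusted p = 0.0666). Cpt1a, the rate-limiting carnitine palmitoyltransferase of the outer membrane, had a term of 0.12 ± 0.26 (SE, edgeR adjusted p = 0.857). DESeq2, which called 362 of 13629 genes higher and 390 lower, called 10 genes of this list higher, and 12 Pparα targets higher and 1 lower.

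Fgf21, the fasting hormone and Pparα target, varied widely within groups, over 1.26 to 34.4 CPM in Tsc1 L-/- and 54.7 to 136 CPM in DKO livers, and its term was −0.10 ± 0.92 (SE, edgeR adjusted p = 0.973). Plin5, a lipid droplet coat protein, had similar effects on both backgrounds, with a change with Tsc1 loss of −0.9983 without and −1.03 with Cpt2 deletion, a term of −0.04 ± 0.29 (SE, edgeR adjusted p = 0.966). Fgf21 and Plin5 were chosen after their values had been seen.

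**Figure D3:**
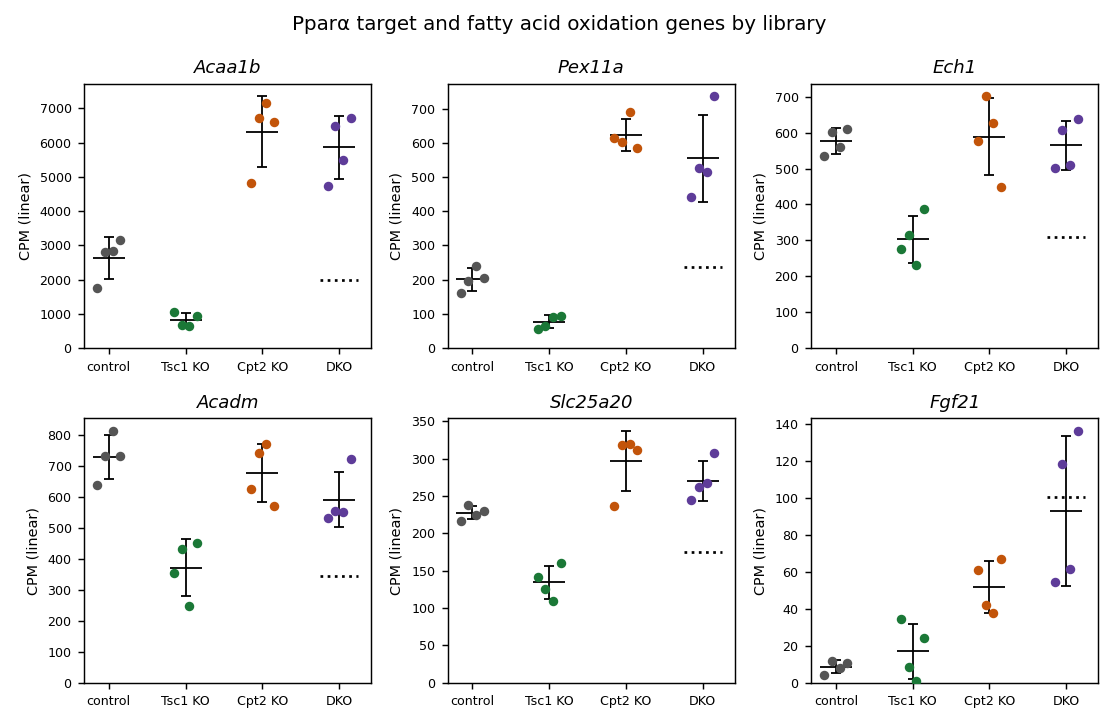
CPM (linear axis) of 6 Pparα target or fatty acid oxidation genes by library, drawn as for the zonated genes. In Acaa1b, Pex11a and Ech1 the Tsc1 L-/- livers are the lowest group (652 to 1050.0 CPM in Acaa1b) and the DKO livers lie above the dotted line; Acadm, Slc25a20 and Fgf21 were not called.

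Of 26 genes of cholesterol synthesis and uptake 24 had a term above 0, with a median of 0.90, the highest of the lists with at least 8 tested genes; 0 were called by edgeR (1.09% of all genes higher), 10 were higher at an unadjusted p under 0.05 (9.57% of all genes) and 5 were called higher by DESeq2 (362 of 13629). The median fell to 0.422 without control replicate 2. Sqle, squalene epoxidase, had means of 52.1, 16.7, 18.1 and 44.9 CPM in control, Tsc1 L-/-, Cpt2 L-/- and DKO livers and a term of 2.96 ± 0.9987 (SE, edgeR adjusted p = 0.137). Mogat1, which makes diacylglycerol, was low everywhere (0.773 to 2.47 CPM in control, 0.126 to 0.407 in Tsc1 L-/-, 0.709 to 1.84 in Cpt2 L-/- and 1.56 to 4.36 in DKO livers) with a term of 3.63 ± 0.64 (SE, edgeR adjusted p = 0.0065). Plin3, a coat protein of small lipid droplets, rose with each deletion and by less than the sum with both: 39.3, 43.8, 40.2 and 60.2 CPM in control, 102, 106, 92.8 and 95.6 in Tsc1 L-/-, 158, 148, 140.0 and 169.5 in Cpt2 L-/- and 175, 202, 215 and 177 in DKO livers. All groups were above control and DKO livers were the highest, yet the term was −0.77 ± 0.18 (SE, edgeR adjusted p = 0.0289). Slc25a1, the mitochondrial citrate carrier that supplies fatty acid synthesis, was at 227 to 312 CPM in DKO livers, above the 165 to 220.1 of the other 12, with a term of 0.74 ± 0.16 (SE, edgeR adjusted p = 0.0215). Mogat1 held with each library left out, Plin3 was lost without each of 6 libraries (adjusted p up to 0.0621, without Cpt2 L-/- replicate 4) and Slc25a1 without control replicates 2 and 4 and DKO replicate 2 (up to 0.0539). With all 24 libraries in the fit all 3 calls were lost (adjusted p = 0.0586 for Mogat1, 0.265 for Plin3 and 0.162 for Slc25a1, edgeR). Slc25a1 was also lost with limma on FPKM (adjusted p = 0.052 and 0.0554).

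Of 92 lysosome and autophagy genes 5 were called, all lower (1.28% of all genes), namely Atg2a, Ulk1, Gabarapl1, Atg9a and Tecpr1. The list median was 0.07. Atg2a (ENSMUSG00000024773, chromosome 19 from 6241668 to 6262335), which feeds lipid to the growing autophagosome, was at 85.5, 92.9, 79.6 and 87.7 CPM in control, 115, 122, 72.2 and 123 in Tsc1 L-/-, 202, 177, 210.0 and 239.7 in Cpt2 L-/- and 98.9, 109, 100.3 and 130.1 in DKO livers. Of the 4 groups the Cpt2 L-/- livers were the highest. The Ppara KO livers of the series overlapped them, at 119 to 233 CPM, and the Cpt2 Ppara KO livers lay at 36.2 to 126. DKO livers were above control livers and near the level of Tsc1 L-/- livers, with a term of −1.22 ± 0.21 (SE, edgeR adjusted p = 0.00499). Gabarapl1, a ubiquitin-like protein of the autophagosome membrane, was highest in a different group, Tsc1 L-/-: 465, 493, 483 and 483 CPM in control, 1301, 1061, 963 and 1064 in Tsc1 L-/-, 474, 478, 478 and 452 in Cpt2 L-/- and 572, 589.9, 605 and 717 in DKO livers. DKO livers were below the Tsc1 L-/- livers and above all control and Cpt2 L-/- livers, and the term was −0.77 ± 0.17 (SE, edgeR adjusted p = 0.0218). Ulk1, the kinase that mTorc1 holds inactive, was at 88.3 to 120.1 CPM in control, 120.2 to 179.8 in Tsc1 L-/-, 92.6 to 113 in Cpt2 L-/- and 69.5 to 95.6 in DKO livers (term −0.78 ± 0.20 (SE, edgeR adjusted p = 0.048)). Atg9a and Tecpr1 had terms of −0.57 and −0.76 (edgeR adjusted p = 0.0478 and 0.032). Gabarapl1 was lost without DKO replicate 2 (0.0545), Atg2a in no such fit, and with all 24 libraries none of the 5 was called. Over the alternatives the number of lower calls in this list ran from 0 to 6 and moved in 15 of 25. From Tsc1 L-/- to DKO livers Atg2a changed by 0.01 (edgeR adjusted p = 0.956).

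In the mTorc1 list 3 of 42 genes were called, all lower (1.28% of all genes; 0 of them with all 24 libraries in the fit): the deleted gene Tsc1 itself, Ulk1 and Pdcd4, an inhibitor of translation that the mTorc1 kinase S6K marks for degradation. Pdcd4 was at 62.2, 69.8, 62.9 and 84.7 CPM in control, 177, 106, 135 and 108 in Tsc1 L-/-, 47.9, 57.0, 63.6 and 63.6 in Cpt2 L-/- and 64.0, 56.5, 63.0 and 43.9 in DKO livers. It rose with Tsc1 loss alone, and the DKO range overlapped those of control and Cpt2 L-/- livers, with a term of −0.92 ± 0.23 (SE, edgeR adjusted p = 0.0429) that was lost in 11 of 16 fits leaving out a library (adjusted p up to 0.0872, without DKO replicate 2).

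Insr (ENSMUSG00000005534, chromosome 8 from 3150922 to 3279617), the insulin receptor, was at 162, 134, 146 and 124 CPM in control, 191, 163, 158 and 203 in Tsc1 L-/-, 146, 151, 202 and 164 in Cpt2 L-/- and 106, 81.9, 118 and 106 in DKO livers. The 4 DKO livers lay below the other 12 and the term was −1.0002 ± 0.20 (SE, edgeR adjusted p = 0.0121). Of 27 genes of insulin signalling and FoxO feedback 26 had a term below 0, with a median of −0.30 and Insr as the only call (1.28% of all genes were called lower). The 35 tested genes of the growth hormone and Stat5 list had a median of 0.18, 19 above and 16 below 0, with Stat5b and Cyp17a1 called lower (1.28% of all genes). Stat5b, which carries the growth hormone signal, was at 63.9, 58.3, 61.4 and 64.0 CPM in control, 78.2, 81.7, 96.4 and 68.0 in Tsc1 L-/-, 75.1, 68.5, 83.8 and 92.1 in Cpt2 L-/- and 57.7, 54.1, 64.1 and 56.8 in DKO livers. It rose with either deletion, and DKO livers overlapped control livers, with a term of −0.83 ± 0.16 (SE, edgeR adjusted p = 0.0121). Both calls held with each library left out (adjusted p up to 0.0272 and 0.0313) and not with all 24 libraries in the fit (0.152 and 0.0656). Gys2, liver glycogen synthase, was at 299 to 517 CPM in Cpt2 L-/- and 145 to 262 in DKO livers, with a term of −1.13 ± 0.27 (SE, edgeR adjusted p = 0.0344) that was lost in 8 of 16 fits (up to 0.0697, without DKO replicate 2).

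**Figure D4:**
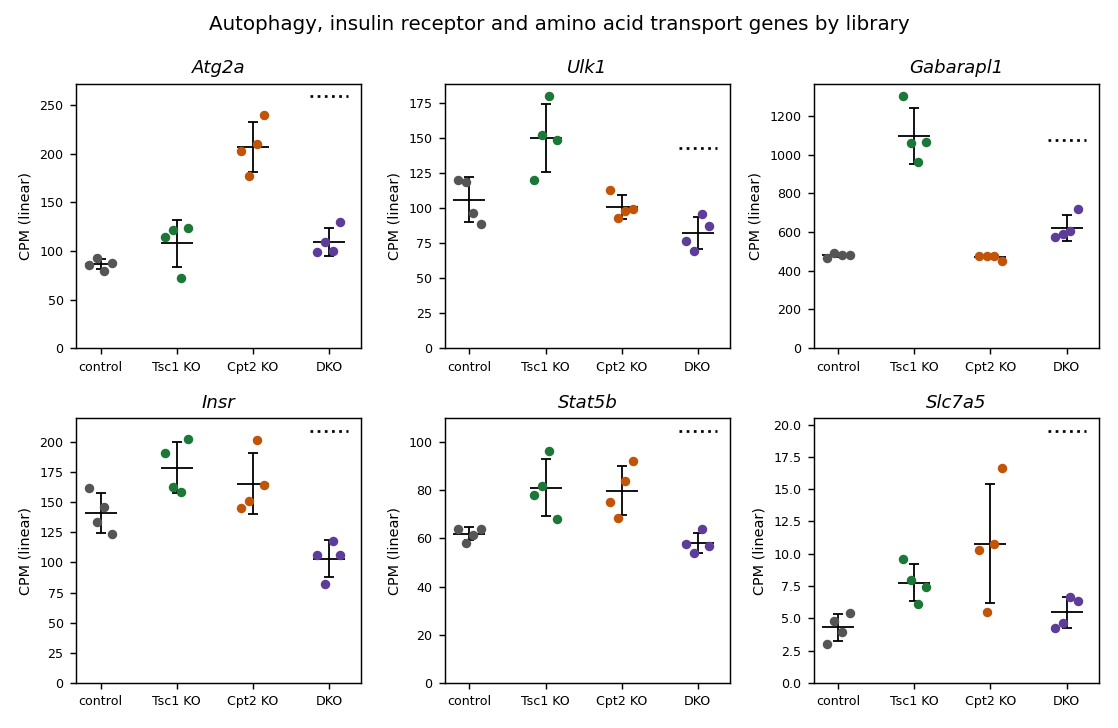
CPM (linear axis) of 6 genes of autophagy, insulin and growth hormone signalling and amino acid transport by library, drawn as for the zonated genes. In all 6 the DKO livers lie below the dotted line. Of these 4 groups Atg2a is highest in Cpt2 L-/- livers (177 to 239.7 CPM). Gabarapl1 is highest in Tsc1 L-/- livers, with DKO livers between these and the rest.

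Amino acid transporters had 4 calls among 28 tested genes, beside 2.38% of all genes. Besides Slc1a2, which was higher, these were Slc38a3, Slc7a5 and Slc43a1, all lower, and the list median was −0.38. Without DKO replicate 2 all 3 lower calls were lost. Slc38a3 (ENSMUSG00000010064, chromosome 9 from 107650639 to 107668968), the glutamine transporter SNAT3, was among the 5 most abundant called genes: 1087, 1227, 1172 and 1237 CPM in control, 1458, 1333, 1600.0 and 968 in Tsc1 L-/-, 906, 1181, 1047 and 1015 in Cpt2 L-/- and 618, 528, 692 and 542 in DKO livers. All DKO livers were below the other 12, and the term was −0.97 ± 0.22 (SE, edgeR adjusted p = 0.0254), lost without DKO replicate 2 (0.0628). Slc7a5, the leucine transporter LAT1 and a target of Atf4, was at 3.03, 4.79, 3.90 and 5.43 CPM in control, 9.55, 7.93, 6.12 and 7.41 in Tsc1 L-/-, 10.3, 5.45, 10.8 and 16.6 in Cpt2 L-/- and 4.22, 4.62, 6.65 and 6.36 in DKO livers. All Tsc1 L-/- and Cpt2 L-/- livers lay above the control livers and DKO livers overlapped them, with a term of −1.82 ± 0.39 (SE, edgeR adjusted p = 0.0187), at the threshold without DKO replicate 2 (0.0503). Slc43a1, another neutral amino acid transporter, had means of 6.46, 13.5, 4.995 and 2.63 CPM in control, Tsc1 L-/-, Cpt2 L-/- and DKO livers (term −1.97, edgeR adjusted p = 0.0216).

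Amino acid breakdown had 5 calls among 57 genes, 2 higher and 3 lower (1.09% and 1.28% of all genes), and a median of −0.21. Glul and Gls2 are described above. Glud1, glutamate dehydrogenase, fell with each deletion and no further with both, to means of 534, 518 and 514 CPM from 1011 in control livers, so that the term was 0.93 ± 0.21 (SE, edgeR adjusted p = 0.0239). Hgd, of tyrosine breakdown, fell where both genes were deleted, to a mean of 220.3 CPM from 639 in control (term −1.16, edgeR adjusted p = 0.0479). Cbs, the entry enzyme of transsulfuration, was at 90.2 to 101 CPM in DKO livers and 134 to 198 in Cpt2 L-/- livers. Its term of −1.03 ± 0.26 (SE, edgeR adjusted p = 0.047) was lost in 11 of 16 fits leaving out a library (up to 0.101, without DKO replicate 2). The Cbs call was also lost with all 24 libraries (0.233) and with the replicate number as a block (0.0684), both in edgeR. Of the 47 Atf4 genes 2 were called (2.38% of all genes), in opposite directions: Slc7a5 lower, and Psph, the last enzyme of serine synthesis, higher. Psph was at 3.98, 4.93, 4.21 and 3.47 CPM in control, 7.20, 5.49, 6.06 and 5.23 in Tsc1 L-/-, 2.46, 3.296, 3.54 and 2.96 in Cpt2 L-/- and 10.6, 18.5, 9.78 and 10.4 in DKO livers. The DKO livers were above all others, and the term of 1.49 ± 0.30 (SE, edgeR adjusted p = 0.0148) held with each library left out, DKO replicate 2 included, and was lost with all 24 libraries in the fit (0.0809). Asns, asparagine synthetase, had a term of −1.62 ± 0.93 (SE, edgeR adjusted p = 0.388).

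Genes of protein synthesis and turnover lay slightly above 0 as lists. Of 83 cytosolic ribosomal protein genes 81 were above 0, with a median of 0.50, 62 higher at an unadjusted p under 0.05 (9.57% of all genes) and 3 called higher (1.09%). The calls were Rpl36a, with a term of 0.82 ± 0.19 (SE, edgeR adjusted p = 0.0269), and the pseudogenes Rps3a3 and Rps3a2, which are near-identical copies of an expressed gene and whose counts are uncertain. Ribosomal protein transcripts made up 1.905% to 2.52% of counts in DKO livers and 1.24% to 2.03% in the other 12. The 45 proteasome genes had a median of 0.42 and 2 calls higher (1.09% of all genes), Psmd14 and Psmb3. Psmd14, the deubiquitinase of the proteasome lid, was at 62.7 to 81.9 CPM in DKO livers and at 37.9 to 53.6 in the others, with a term of 0.79 ± 0.16 (SE, edgeR adjusted p = 0.0144). Iars2, the mitochondrial isoleucyl-tRNA synthetase, had a term of 0.58, edgeR adjusted p = 0.0261, Psmb3 of 0.65, edgeR adjusted p = 0.0361. Manf, a secreted ER stress protein, was at 104, 108, 63.8 and 73.4 CPM in control, 132, 88.2, 95.7 and 81.4 in Tsc1 L-/-, 37.8, 20.8, 19.1 and 25.5 in Cpt2 L-/- and 77.7, 99.4, 63.5 and 58.0 in DKO livers. Only the Cpt2 L-/- livers were low, and the term was 1.36 ± 0.34 (SE, edgeR adjusted p = 0.0473). From Tsc1 L-/- to DKO livers Manf changed by −0.42 (edgeR adjusted p = 0.193). Psmd14 held with each library left out, while Psmb3, Iars2 and Manf were lost in 11, 6 and 12 of 16 fits (adjusted p up to 0.086, 0.0695 and 0.104). With all 24 libraries these 4 calls were lost, with edgeR adjusted p of 0.386 for Psmd14, 0.367 for Psmb3, 0.19 for Iars2 and 0.224 for Manf.

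Of the stellate cell and fibrosis, antioxidant and nuclear receptor lists 2 of 38, 2 of 48 and 1 of 39 genes were called (5.26%, 4.17% and 2.56%, beside 2.38% of all genes). Col4a1 and Col4a2, the chains of basement membrane collagen, lie head to head on chromosome 8 and had the same form. Col4a2 was at 45.7, 33.2, 28.8 and 24.0 CPM in control, 36.8, 24.6, 28.5 and 29.4 in Tsc1 L-/-, 70.2, 82.0, 88.0 and 137 in Cpt2 L-/- and 35.2, 21.9, 32.4 and 30.3 in DKO livers. Of the 4 groups the Cpt2 L-/- livers were the highest. The terms were −1.49 ± 0.31 (SE, edgeR adjusted p = 0.0188) for Col4a2 and −1.31 ± 0.31 (SE, edgeR adjusted p = 0.0354) for Col4a1. The Ppara KO livers of the series overlapped Cpt2 L-/- livers, at 58.8 to 94.5 CPM for Col4a2 and 89.3 to 138 for Col4a1. The Cpt2 Ppara KO livers were lower, at 9.78 to 43.7 and 15.4 to 52.3 CPM. From Tsc1 L-/- to DKO livers, without the Cpt2 L-/- libraries, Col4a1 changed by −0.06 (edgeR adjusted p = 0.853), and Col4a2 did not pass either (0.998). Rxrb, a partner receptor of Pparα, was at 54.5, 52.1, 46.0 and 50.1 CPM in control, 44.5, 48.1, 45.3 and 47.8 in Tsc1 L-/-, 92.9, 84.0, 104 and 98.9 in Cpt2 L-/- and 49.6, 53.6, 55.7 and 58.1 in DKO livers. Here too, of the 4 groups, only Cpt2 L-/- livers stood out. The Rxrb term was −0.66 ± 0.13 (SE, edgeR adjusted p = 0.0153), with a change from Tsc1 L-/- to DKO livers of 0.22 (0.0927). Rxrb was at 61.9 to 83.3 CPM in Ppara KO and 68.7 to 88.4 CPM in Cpt2 Ppara KO livers. Hmox1, heme oxygenase, was at 44.1 to 99.99 CPM in Cpt2 L-/-, 29.9 to 50.4 in DKO, 20.4 to 33.3 in Tsc1 L-/- and 10.2 to 19.1 in control livers (term −1.55 ± 0.36 (SE, edgeR adjusted p = 0.0314)). Gstm4, a glutathione transferase, was at 55.4, 72.6, 43.8 and 57.8 CPM in control, 56.9, 55.7, 56.3 and 61.5 in Tsc1 L-/-, 63.2, 54.3, 51.4 and 60.8 in Cpt2 L-/- and 127, 149, 148 and 116 in DKO livers. It was flat in the single deletions and above all of them in DKO livers, with a term of 1.25 ± 0.19 (SE, edgeR adjusted p = 0.00162). Col4a1 and Hmox1 were each lost in 9 of 16 fits leaving out a library (adjusted p up to 0.0804 and 0.0675), Col4a2, Rxrb and Gstm4 in none, and with all 24 libraries the adjusted p was 0.156 for Col4a2, 0.0991 for Rxrb and 0.301 for Gstm4.

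The widest terms were, by rule, the 8 highest and 8 lowest called terms among genes reaching 5 CPM in a group, and several of these genes were near absent in a group. Cyp2c39 (ENSMUSG00000025003, chromosome 19 from 39510862 to 39568529), a P450 of the arachidonic acid-metabolizing Cyp2c family, had the highest. It was at 165, 412, 196 and 445 CPM in control, 62.3, 3.87, 1.70 and 3.55 in Tsc1 L-/-, 3.74, 2.03, 2.78 and 1.48 in Cpt2 L-/- and 105, 78.1, 59.1 and 90.2 in DKO livers. Control livers were above all others, DKO livers were above every Cpt2 L-/- liver, and the term was 9.15 ± 1.42 (SE, edgeR adjusted p = 0.00712). Cyp2c39 was low in the other genotypes of the series as well, at 0.753 to 2.01 CPM in Ppara KO and 3.87 to 7.47 in Cpt2 Ppara KO livers. Its family members share sequence, so reads could be split among them, and Tsc1 L-/- replicate 1 was far above the other Tsc1 L-/- livers. Hist1h2al, Hist1h2bq, Cd1d2 and AK157302 owe their terms to near absence in Cpt2 L-/- livers. Hist1h2al, a replication-dependent histone gene, was at 0 to 0.16 CPM there and 10.5 to 34.7 CPM in the other 12. With the Cpt2 L-/- level set to a floor of 3 counts per library its term was at least 6.97, and that of Hist1h2bq at least 4.76. From Tsc1 L-/- to DKO livers these genes did not pass the test, with changes of −0.10 for Hist1h2al, −0.52 for Hist1h2bq, −0.27 for Cd1d2 and 1.12 for AK157302. The histone genes, Cd1d2 and the Rps3a pseudogenes have close copies between which the counting could divide reads. AK157302 and Rps3a2 were also low in the 8 Ppara KO and Cpt2 Ppara KO livers, at 0.0466 to 0.579 and 0.466 to 1.81 CPM. Slc17a8, a vesicular glutamate transporter, was at 12.1 to 25.9 CPM in control livers and at 1.17 to 5.55 in all others, so that either deletion alone gave most of the fall (term 2.52 ± 0.41 (SE, edgeR adjusted p = 0.00367)). Cdk5rap1, which modifies mitochondrial tRNAs, had means of 16.9, 7.96, 10.0 and 22.6 CPM in control, Tsc1 L-/-, Cpt2 L-/- and DKO livers (term 2.27 ± 0.42 (SE, edgeR adjusted p = 0.0103)).

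Among the lowest terms, Fst (ENSMUSG00000021765, chromosome 13 from 114452262 to 114458730), follistatin, the secreted inhibitor of activin, had the smallest p. It was at 1.54, 2.09, 1.28 and 2.08 CPM in control, 10.2, 7.39, 5.49 and 5.98 in Tsc1 L-/-, 3.74, 5.77, 4.84 and 7.73 in Cpt2 L-/- and 2.28, 1.21, 2.67 and 1.34 in DKO livers. All livers with a single deletion lay above all control and all DKO livers, which overlap, and the term was −3.60 ± 0.42 (SE, edgeR adjusted p = 0.000208), called in every setting tried. Cyp17a1, a steroid hydroxylase, was at 16.6, 33.0, 4.78 and 5.09 CPM in control, 229.8, 70.1, 9.84 and 69.8 in Tsc1 L-/-, 20.3, 29.8, 19.7 and 16.9 in Cpt2 L-/- and 0.571, 0.263, 2.74 and 2.57 in DKO livers. DKO livers were below the other 12 in a gene that spread widely within groups (term −6.50 ± 1.33 (SE, edgeR adjusted p = 0.0265)). Arhgap6, a GTPase-activating protein, was at 10.0 to 22.8 CPM in Tsc1 L-/- livers and 1.63 to 5.55 in the others (term −2.39 ± 0.41 (SE, edgeR adjusted p = 0.00474)). Adcy1, an adenylate cyclase, and the lincRNA RP23-52N17.1 were lowest in control livers, at 0.257 to 0.752 and 0.257 to 0.752 CPM, and rose with each deletion (terms −3.67 and −2.23, edgeR adjusted p = 0.026 and 0.0236). RP23-52N17.1 was highest in DKO livers (means 0.495, 5.85, 8.25 and 20.6 CPM in control, Tsc1 L-/-, Cpt2 L-/- and DKO), and its term turns to 7.03 CPM above 0 when means are compared without logarithms. Galnt15, a mucin-type glycosyltransferase, had a term of −2.48, edgeR adjusted p = 0.0332. Of these, Fst and Arhgap6 held with each library left out. Cyp17a1 was lost without control replicate 4 and DKO replicates 1 and 2 (adjusted p up to 0.0628), Adcy1 without control replicates 1 and 3, Cpt2 L-/- replicate 4 and DKO replicate 2 (up to 0.0615), RP23-52N17.1 without control replicate 3 (0.0538) and Galnt15 in 9 of 16 fits (up to 0.0783). Cyp17a1 and Adcy1 kept their call with all 24 libraries (0.0198 and 0.0247), and RP23-52N17.1 lost it there (0.129) and with limma on FPKM. Cyp17a1, Adcy1 and Galnt15 were lost with the replicate number as a block, and Adcy1 and Galnt15 also without the filter on low counts. Adcy1 was lost with limma on FPKM as well.

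By abundance, the 5 called genes with the highest mean level were Acaa1b, Serpina1b, Slc38a3, Glul and Gabarapl1. Serpina1b, an α1-antitrypsin gene with near-identical copies beside it, was at 3572, 5145, 2785 and 3281 CPM in control, 3799, 4615, 4450.0 and 2802 in Tsc1 L-/-, 1946, 2766, 3060.0 and 2868 in Cpt2 L-/- and 1085, 1187, 1455 and 1009 in DKO livers. The DKO livers lay below the other 12 and the term was −1.23 ± 0.30 (SE, edgeR adjusted p = 0.0354), lost in 10 of 16 fits leaving out a library (adjusted p up to 0.0785, without DKO replicate 2).

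The plot of list medians sets the groups of genes side by side. Cholesterol synthesis, ketogenesis, Pparα targets and β-oxidation had the highest medians, and periportal genes, acute-phase genes and the 13 mitochondrially encoded respiratory chain genes the lowest, at −0.91, −0.54 and −0.49. Mitochondrially encoded RNA took 3.78% to 5.04% of counts in control and 4.91% to 8.07% in the other 12 livers. The 77 nuclear respiratory chain genes were near 0 (0.14). No gene of 16 lists was called by edgeR, among them acyl-CoA thioesterases (median 0.44, 2 of 12 higher at an unadjusted p under 0.05), bile acid synthesis (−0.07), circadian genes (−0.26), interferon-stimulated genes (−0.26) and markers of Kupffer cells (−0.39), endothelium (−0.06) and cholangiocytes (−0.31).

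**Figure D5:**
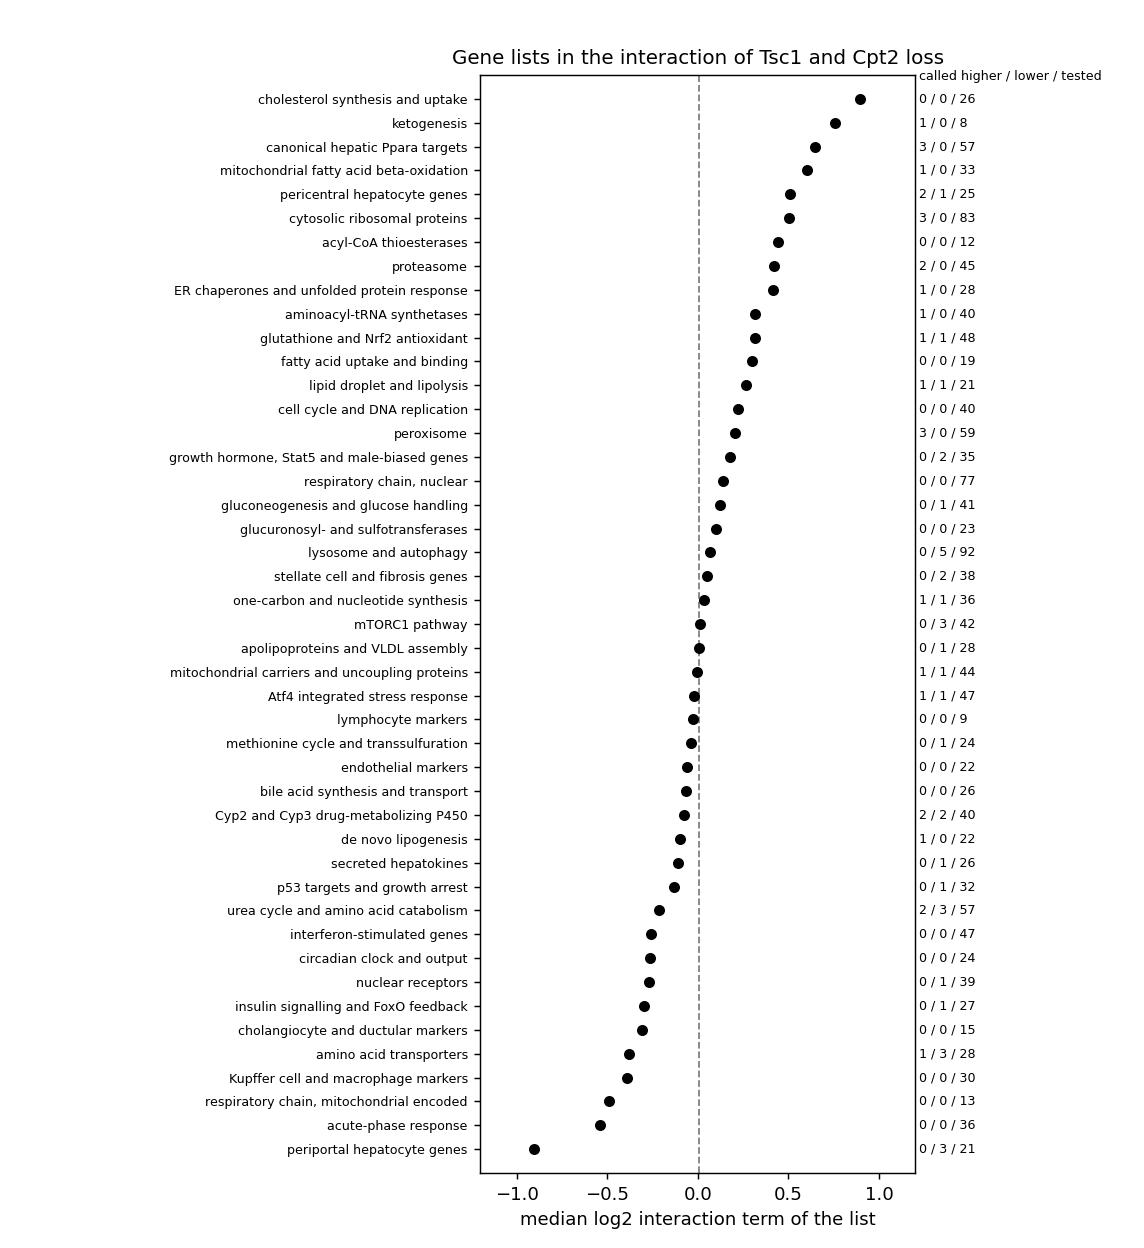
Median log2 interaction term (x axis) of each gene list with at least 8 tested genes, 1 point per list; the dashed line is the median of all 13641 tested genes, and the numbers at the right give members called higher, called lower and tested. Periportal genes lie farthest to the left (−0.91) and cholesterol synthesis farthest to the right (0.90), and no list has more than 5 called genes.

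All values carry limits of the sampling. The labels number the replicates without stating the animal behind each, and the p-values measure the spread between these libraries. Of the 52 named genes that were called, 30 kept their call with each of the 16 libraries left out in turn and 18 with all 24 libraries in the fit, which left 65 called genes in all, 63 of them among the 324. The 18 were AK157302, Adcy1, Arhgap6, Cd1d2, Cdh1, Cdk5rap1, Cyp17a1, Cyp2c39, Fst, Galnt15, Gls2, Glul, Hist1h2al, Hist1h2bq, Rps3a2, Rps3a3, Slc1a2 and Slc7a5.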

How the data were processed

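Liver RNA of 24 libraries was sequenced as single 75-base reads from stranded mRNA libraries. The authors deposited the reads counted on each of 35275 genes as unnormalized counts, and FPKM values scaled from them. Over the 24 libraries, 0 FPKM values differed by more than 0.1% from those recomputed from the counts. The submitters' processing notes name Bowtie 0.12.2, TopHat, STAR 2.5, STAR-Fusion, HTSeq 0.6.1, edgeR and DESeq2, and the builds mm8 and mm9, with no role for any of them. The gene coordinates are those of the deposited table, and 99.1% of the 34490 genes also in the GRCm38 annotation start within 20000 bases of their position there. Whether reads were counted by strand is not given in the sources used here, so overlapping and antisense genes may share reads.

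Counts of the 16 libraries were fitted in R 4.3.3 with edgeR 4.0.16, after filterByExpr (minimum count 10, minimum total 15) and TMM, with a coefficient per genotype and no covariates, by the robust quasi-likelihood test. The interaction contrast was adjusted over 13641 genes by Benjamini-Hochberg, with a threshold of 0.05. CPM are from edgeR after TMM over all 24 libraries. Alternatives were RLE size factors, DESeq2 1.42.0, other filters, all 24 libraries, the replicate number as a block, each library left out, limma 3.58.1 on log2(FPKM + 1) and log2(FPKM + 0.1), and a size requirement. In simulated counts of this design, with 13458 genes tested, the edgeR test recovered 35% of terms of log2 1 and 85% of terms of log2 2. It made 5 false calls among the genes given no term. The genes given a term were drawn from those with a mean above 1 CPM. No 2 replicates of a group agreed within sampling noise, the lowest chi-square per degree of freedom being 24.2 over 24 pairs.

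Genes were named by rule: Tsc1, Cpt2 and Ppara, the 8 highest and 8 lowest called terms among genes with a mean of at least 5 CPM in a group (predicted and Rik genes and pseudogenes left out), up to 2 called genes per list by p, and the 5 called genes of highest level. Members and lists were chosen with earlier results of these data known, and the 10-fold rule for libraries that stand apart, the promoters and motifs and the genes outside the naming rule (Sdr9c7, Fgf21, Plin5, Ulk1 and other list members given by value) after values had been seen. The 10-fold rule replaced a first one that asked for at most 3 counts in a group and at least 30 in the other 12 libraries. Some genes are not reported here. Columns left unused numbered 0. Sequences are from RefSeq. Of the cell type markers, 42 were matched by symbol.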

Additional observations from a re-analysis of the deposited data

Results flagged for a closer look

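In 54 named genes, the 4 libraries of each of the 4 groups were searched for a library far from the rest by Dixon's 95% criterion, and 10 of 216 group values met it (4.63%). Chance alone is set to give about 1 in 20. In Tsc1 L-/- livers these were replicate 1 for Cyp2c39 (62.3 CPM) and Sulf2 (108 CPM) and replicate 3 for Atg2a (72.2 CPM) and Hmox1 (33.3 CPM). In Cpt2 L-/- livers replicate 4 stood apart for Hist1h2bq (0.0568 CPM) and Gabarapl1 (452 CPM). In DKO livers it was replicate 2 for Ppara (171 CPM), Psph (18.5 CPM) and AK157302 (2.42 CPM), and among control livers replicate 4 for AK157302 (7.29 CPM).

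The effect of Tsc1 loss differed between livers with intact and with deleted Cpt2 in 52 named genes by the test of the interaction itself, 23 higher and 29 lower. The log2 terms above 0 were those of Cyp2c39 (9.15), Hist1h2al (8.12), Hist1h2bq (7.78), Rps3a3 (6.53), Cd1d2 (6.34), AK157302 (5.47), Rps3a2 (4.45), Mogat1 (3.63), Slc1a2 (2.83), Slc17a8 (2.52), Cdk5rap1 (2.27) and Glul (2.02), followed by Acaa1b (1.57), Psph (1.49), Manf (1.36), Gstm4 (1.25), Pex11a (1.24), Ech1 (0.89), Psmd14 (0.79), Slc25a1 (0.74), Impdh2 (0.70), Psmb3 (0.65) and Iars2 (0.58). Those below 0 were Cyp17a1 (−6.50), Adcy1 (−3.67), Fst (−3.60), Cdh1 (−2.65), Galnt15 (−2.48), Gls2 (−2.41), Arhgap6 (−2.39), RP23-52N17.1 (−2.23), Slc7a5 (−1.82), Slc25a48 (−1.70), Hmox1 (−1.55), Upp1 (−1.52), Col4a2 (−1.49), Cyp2f2 (−1.38) and Col4a1 (−1.31), followed by Sulf2 (−1.24), Serpina1b (−1.23), Atg2a (−1.22), Abcg1 (−1.22), Gys2 (−1.13), Cbs (−1.03), Insr (−1.0002), Slc38a3 (−0.97), Pdcd4 (−0.92), Tsc1 (−0.87), Stat5b (−0.83), Plin3 (−0.77), Gabarapl1 (−0.77) and Rxrb (−0.66). Terms of the genes with a group near 0, such as the histone genes, depend on the prior count of the fit. Upp1 lost its call in 14 and Abcg1 in 10 of the 16 fits that leave out a library, and both lost it with all 24 libraries.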

How the results depend on the processing

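All 324 called genes kept the sign of their term in every setting that gave them a value, the stricter filter of 1 CPM in 8 libraries giving one for 303. The number of called genes changed more. It was 328 with RLE size factors (318 of the 324 among them), 286 without the filter on low counts (261), 313 with the stricter filter (302), 227 with limma on log2(FPKM + 1) (182) and 195 on log2(FPKM + 0.1) (91 higher and 104 lower; 178). DESeq2 called 752 (362 higher and 390 lower), all 324 included, and in simulated data it made 14 false calls where edgeR made 5. With all 24 libraries in the fit 65 were called (33 higher and 32 lower), and an absolute term of at least 1 left 188 (84 and 104). With each library left out the count was 150 (without DKO replicate 2) to 403 (without Tsc1 L-/- replicate 3), with 71 to 189 higher and 79 to 214 lower, and it also fell by more than 1.5 times without control replicates 2 (207) and 4 (206) and without Cpt2 L-/- replicates 3 (211) and 4 (199). Why these counts moved was not tested. For named genes 1089 of the values kept direction and side of the threshold, 250 lost the call and 11 changed sign. The sign changes were all in Ppara, at −0.002 with all 24 libraries and −0.124 to 0.161 with a library left out. With the replicate number as a block 270 genes were called, 241 of them among the 324. Same-numbered libraries were not shown to deviate together (median r −0.0174 over 24 pairs, 7 over 0.1), and 0 libraries correlated best with their own number in every other group, so the numbers are taken as names only. At 4 libraries a group a term of log2 1 was recovered in 35% of simulated cases, so an uncalled gene is not shown to lack a term; recovery by level or depth was not tested.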

Other observations

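Some of the smallest p-values lay outside the rule for named genes, and the following genes were chosen after their values had been seen. Tecr, the last enzyme of each round of very long-chain fatty acid elongation, was at 309, 261, 265 and 308 CPM in control, 198, 258, 204 and 218 in Tsc1 L-/-, 101, 132, 133 and 114 in Cpt2 L-/- and 207, 316, 298 and 277 in DKO livers. The Cpt2 L-/- livers lay below the other 12, and the term was 1.5964 ± 0.20 (SE, edgeR adjusted p = 0.000356). From Tsc1 L-/- to DKO livers Tecr changed by 0.31 (edgeR adjusted p = 0.0948). Crebrf, a regulator of the unfolded protein response that is induced by starvation, was at 19.6, 25.1, 32.6 and 21.6 CPM in control, 38.9, 38.1, 45.8 and 32.8 in Tsc1 L-/-, 38.1, 27.9, 33.6 and 34.8 in Cpt2 L-/- and 21.6, 16.6, 19.0 and 19.1 in DKO livers. The DKO livers overlapped control livers and were below all livers with a single deletion, with a term of −1.45 ± 0.22 (SE, edgeR adjusted p = 0.0016). Klhl24, a substrate adaptor of a ubiquitin ligase, was at 74.8, 79.4, 86.1 and 71.5 CPM in control, 95.4, 86.8, 81.3 and 74.1 in Tsc1 L-/-, 94.5, 93.1, 113 and 119 in Cpt2 L-/- and 50.3, 43.3, 57.4 and 55.1 in DKO livers. All 4 DKO livers were below the other 12 (term −1.12 ± 0.17 (SE, edgeR adjusted p = 0.0016)).

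P450 genes outside those described had called terms in both directions. Cyp2r1, a vitamin D 25-hydroxylase, had means of 11.2, 11.4, 5.89 and 12.2 CPM in control, Tsc1 L-/-, Cpt2 L-/- and DKO livers, and its term was 1.05 ± 0.25 (SE, edgeR adjusted p = 0.0308). Cyp3a13 had means of 118, 172, 113 and 41.0 CPM in the same order, and its term was −1.99 ± 0.39 (SE, edgeR adjusted p = 0.0166). Hrk, a pro-apoptotic BH3-only gene, was listed at 0 in all 4 control livers, at 0.949 to 2.36 CPM in Tsc1 L-/-, at 0.571 to 1.14 in Cpt2 L-/- and at 0.685 to 1.55 in DKO livers, so its fitted term depends on the prior count and is not given. Cd68, the lysosomal protein of macrophages, was at 6.32 to 9.69 CPM in control, 8.71 to 9.65 in Tsc1 L-/-, 22.6 to 50.5 in Cpt2 L-/- and 34.6 to 126 in DKO livers, and its term of 1.33 ± 0.46 (SE, edgeR adjusted p = 0.14) was not called.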
